A study of Homo sapiens with 6 samples.

Results

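The genes described here belong to the integrated stress response of Meg-01 cells: the transcription factors ATF5, ATF4 and DDIT3 (also called CHOP), the ATF4-regulated genes TRIB3, CHAC1, SESN2 and DDIT4, and the amino acid enzymes ASNS, PSAT1 and PHGDH. They were chosen on the fall of ATF5 in C3-treated against control libraries, so their values in that comparison are given as a description. Their calls in the tests of all genes are listed, but nothing is read from them. These 10 genes are among 58735 genes in the count table and 15078 genes with enough counts to be tested, and all 10 passed the filter of at least 10 counts in at least 3 libraries.

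Meg-01 is an established human megakaryoblast line, an immature relative of the cells that shed platelets. Control cells were untreated, and C3 cells received 500 µM sodium propionate, the salt of the bacterial short chain fatty acid propionate, for 48 h according to the sample labels. The study's methods also name a shorter incubation before RNA extraction. RNA of each group was sequenced in 3 libraries, which the study describes as technical replicates, so that p-values measure only the spread between these libraries and not the spread between cultures. Total counts were 19318595, 18050689 and 16159449 in the control libraries and 16513025, 18652292 and 22821722 in the C3 libraries. No 2 libraries of a group were copies of each other, since their counts differed by more than sampling noise (lowest ratio of chi-square to degrees of freedom 2.42). The first principal component of log2 CPM held 45.5% of the variance and separated the groups. The second held 17.4% and set control library 3 (-21.3) apart from control libraries 1 and 2 (12.5 and 10.9), and C3 library 1 (13.4) apart from C3 libraries 2 and 3 (-10.4 and -5.09). Control library 3 held the highest value of its group in 6 of the 10 members, and C3 library 1 in 5 of 10.

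Markers of the megakaryocyte lineage were detected, with a pair of exceptions. Of 13 megakaryocyte markers, 11 passed the count filter, and the most abundant was ITGA2B, the alpha chain of the platelet fibrinogen receptor, with a mean of 678 CPM (counts relative to the effective library size). GP1BB and PF4 were at 0 counts in every library. Exons of other genes on the same strand cover 100% of the main transcript of GP1BB and 66% of that of PF4, and reads in shared exons can be left out of a count. Summed over the list, megakaryocyte markers reached 1396, 1399 and 1333 CPM in control and 1355, 1228 and 1266 CPM in C3. The 6 myeloid markers summed to 244, 243 and 246 CPM in control and 229, 217 and 217 CPM in C3, with CD33 as the most abundant. The 9 erythroid markers, led by KLF1, summed to 77.5, 70.1 and 74.0 CPM in control and 85.7, 81.7 and 85.4 CPM in C3. The 5 lymphoid markers stayed between 3.45 and 5.31 CPM in all libraries, with CD79A as the most abundant and MS4A1 at 0. The myeloid sum was thus lower and the erythroid sum higher in every C3 library than in every control library, and the part of these shifts in the results was not tested. Each sum rests in large part on its most abundant gene, and single markers, named here after their values were seen, did not all follow it. Of the megakaryocyte markers, GP1BA (log2 fold change -0.49, SE 0.061) and TUBB1 (-1.36, SE 0.31) were called lower in edgeR. Of the myeloid markers, LYZ (-0.51, SE 0.079) was called lower, while CSF1R was at 0.26 (SE 0.16). Of the erythroid markers, HBA2 was at -0.68 (SE 0.21), with all C3 libraries below control, against 0.14 (SE 0.074) for KLF1. In bulk RNA, fewer cells with a transcript and less of it per cell cannot be told apart.

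The integrated stress response begins when kinases that sense amino acid shortage, misfolded protein, double-stranded RNA or haem deficiency phosphorylate the translation initiation factor eIF2 on its alpha subunit. Most translation then slows, while mRNAs with short upstream reading frames, among them those of ATF4 and ATF5, are translated more. ATF4 is a bZIP protein that pairs with C/EBP proteins on composite DNA elements of genes for amino acid synthesis, redox balance and cell death, and read counts report mRNA levels and not the translated proteins.

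Since ATF4 is known to act through such composite elements, the members were searched for the letters TGATGNAA on both strands. All 10 members matched RefSeq windows on GRCh38.p14 that run from 250 bases before to 50 bases after a start of the gene. As some genes have several starts, there were 17 such windows, some of them overlapping. The letters were in 2 of the 17 windows, 1 of ASNS and that of CHAC1, against 3.62% of 35116 windows of all genes. The cAMP response element TGACGTCA, to which ATF family dimers also bind, was in 0 of the 17 windows, against 1.85% of all windows. Within 1000 bases on either side of the start of the GENCODE 44 main transcript (hg38), 8 of the 10 members held TGATGNAA at least once, against 3758 of 20046 protein-coding genes (18.7%). The exceptions were ATF5 and ATF4, whose windows of 2000 bases did not contain these letters. The match nearest the start is shown for each gene that had any, on the strand of the gene, with the matching letters in capitals. A match on the opposite strand thus appears as its reverse complement. TRIB3 carried the same 30 bases 3 times.
DDIT3: gttgccaaacaTTGCATCAtccccgccccc
TRIB3: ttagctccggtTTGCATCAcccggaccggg
ASNS: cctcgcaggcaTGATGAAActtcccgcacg
CHAC1: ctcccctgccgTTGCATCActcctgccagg
SESN2: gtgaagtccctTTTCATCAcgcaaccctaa
PSAT1: ccctaggcgctTTGCATCAgcgtgcacagc
PHGDH: cgcccctcgtcTGATGCAAgactgctccgt
DDIT4: gtcctcggtccTGATGCAAccgtctggatc

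All positions of these stretches are on hg38. The DDIT3 stretch lies at chr12:57520802-57520831 on the minus strand, with its match at position -306 from the start of the transcript. In TRIB3 the copies lie at chr20:380881-380910, chr20:380914-380943 and chr20:380947-380976 on the plus strand, in an exon of the 5' untranslated region. The ASNS stretch is at chr7:97872458-97872487 on the minus strand, at position -68. CHAC1 has its match at position -209, in chr15:40953251-40953280 on the plus strand. The SESN2 stretch at chr1:28259211-28259240 (plus strand) lies before the start as well, at -296. In PSAT1 (chr9:78297381-78297410, plus strand) and PHGDH (chr1:119712786-119712815, plus strand) the stretch falls in an intron, at positions 268 and 864 from the start of the main transcript. The only DDIT4 match is at -946, in chr10:72272967-72272996 on the plus strand. A match of these letters is a description of the sequence, not evidence of binding, and a window without them says only that these letters are not there.

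C3 treatment came with a fall of ATF5, while the estimates for ATF4 and the other 8 members stayed within 1.3-fold of control. ATF5 (ENSG00000169136, chr19:49928702-49933935, plus strand, GRCh38) is a bZIP factor that drives expression of mitochondrial chaperones and proteases under stress. Its normalized counts, which are counts scaled to the mean effective library size, were 972, 947 and 875 in the control libraries and 534, 469.9 and 470.5 in the C3 libraries. Every C3 library lay below every control library, and the C3 library with the highest count was still far from the lowest control. The mean went from 931 ± 50.1 (SD, n = 3) to 491 ± 36.7 (SD, n = 3). The fitted log2 fold change was -0.93 with a standard error (SE) of 0.077, which corresponds to 52.6% of control. Leaving out control library 3 gave a log2 fold change of -0.97 and leaving out C3 library 1 gave -0.98. Among all tested genes 3.07% had a larger absolute log2 fold change. From the lowest log2 fold change upward, ATF5 ranked 57 of 15078 tested genes, 14 of the 222 genes called lower, and 4 of the 11851 genes whose mean normalized count was 50 or more.

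A gene was called in edgeR's quasi-likelihood test if it passed both gates, an adjusted p below 0.01 and a change beyond 1.3-fold. Of the 10 members, 1 was called lower (ATF5) and 0 were called higher, beside 5.05% of all tested genes called higher, 1.47% called lower and 6.52% called in either direction. At unadjusted p below 0.05, edgeR had 2 members higher and 1 lower, beside 16.8% and 15.3% of all tested genes, and both DESeq2 and limma-voom called the same 0 and 1. C3 libraries lay wholly above control in 2 members (ATF4 and ASNS) and wholly below in 1 (ATF5), beside 17.5% and 16.9% of all tested genes. Since the members were chosen from this comparison, nothing is read from these counts. The 9 members other than ATF5 had log2 fold changes between -0.089 and 0.31, with a median of 0.097 and 8 of them above 0, beside a median of 0.0021 over all tested genes. All 9 were inside the fold gate, as were 81.4% of all tested genes.

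**Figure D1:**
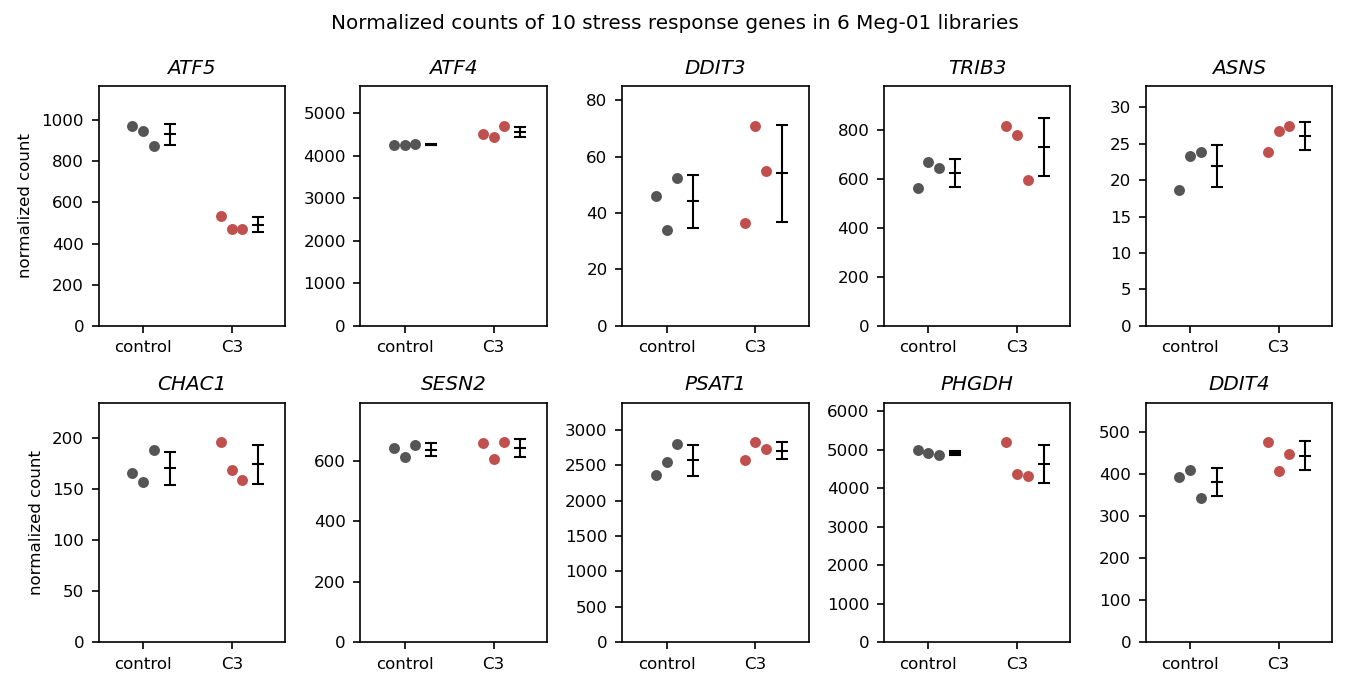
Normalized counts (vertical axis, from 0, scaled per gene) of the 10 members in each control library (grey) and C3 library (red), with the group mean ± SD as black bars (n = 3). The C3 libraries of ATF5 sit between 469.9 and 534, below the control libraries at 875 to 972, while for 7 members the groups overlap.

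ATF4 (ENSG00000128272, chr22:39519695-39522683, plus strand) is the main effector of the response. It had normalized counts of 4258, 4252 and 4273 in control and 4520, 4450 and 4698 in C3. All C3 libraries were above the controls, but by a small margin. The mean went from 4261 ± 10.9 to 4556 ± 128 (SD, n = 3), a log2 fold change of 0.097 (SE 0.060).

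The distance between both factors was also seen within each library, which removes the library scaling. The log2 ratio of ATF5 to ATF4 was -2.13, -2.17 and -2.29 in control and -3.08, -3.24 and -3.31 in C3. The mean ratio moved from -2.19 ± 0.082 to -3.21 ± 0.12 (SD, n = 3), a difference of -1.02. For the other members, the difference in the log2 ratio to ATF4 was between -0.19 (PHGDH) and 0.16 (DDIT3). ATF5 was thus the member that moved away from ATF4, and this too is a description of the comparison on which it was chosen.

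**Figure D2:**
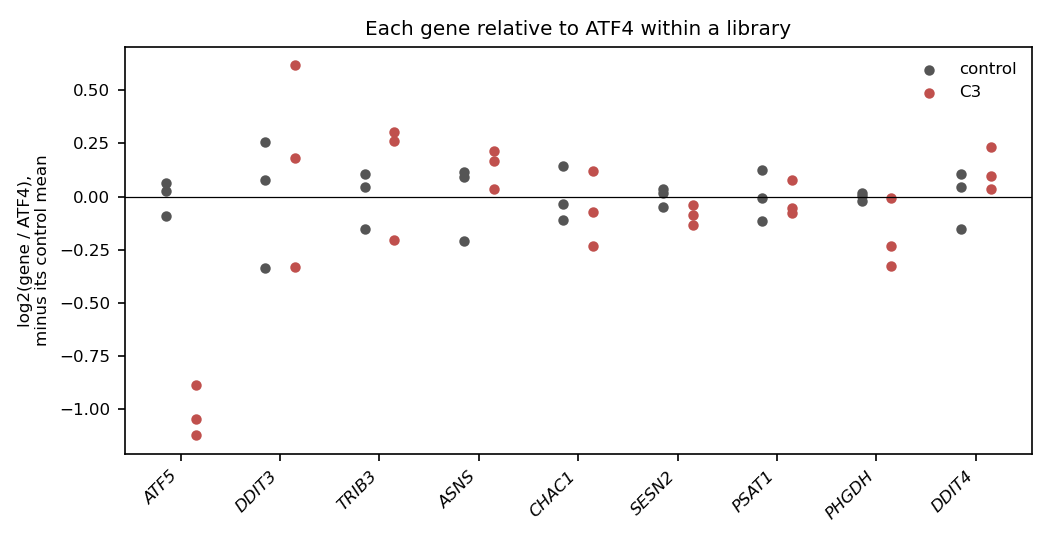
Log2 ratio of each member to ATF4 within a library, minus the mean ratio of the control libraries (vertical axis), for 3 control (grey) and 3 C3 (red) libraries per gene. The ATF5 ratio in C3 lies about -1.02 from its control mean, and the C3 points of DDIT3 are the most spread.

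DDIT3 (ENSG00000175197, chr12:57516588-57521737, minus strand) encodes CHOP, a C/EBP family factor induced downstream of ATF4 and linked to stress-induced death. It was weakly expressed, with normalized counts of 46.0, 33.9 and 52.5 in control and 36.4, 70.8 and 54.9 in C3. The C3 libraries included both the highest value and a value below 2 of the controls, so the groups overlapped. Its log2 fold change was 0.31 with an SE of 0.25, and at raw counts of 32 to 74 per library a change of this size was within the error. Without C3 library 2 the log2 fold change was 0.086, and without C3 library 1 it was 0.51. Other genes share 35.9% of the bases of its main transcript, including MARS1 on the opposite strand, so part of its reads may be uncounted or belong to a neighbour.

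TRIB3 (ENSG00000101255, chr20:362835-397559, plus strand), a pseudokinase that is induced by ATF4 and CHOP and holds ATF4 back, had normalized counts of 560.3, 669 and 644 in control. In C3 it had 815, 779 and 596. C3 libraries 1 and 2 were above all controls and C3 library 3 was below 2 of them, so the groups overlapped. The log2 fold change was 0.22 (SE 0.096), and leaving out single libraries moved it between 0.14 (without C3 library 1) and 0.36 (without C3 library 3).

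CHAC1, SESN2 and DDIT4 are stress genes of different action. CHAC1 (ENSG00000128965, chr15:40952962-40956512, plus strand) breaks down glutathione. Its normalized counts were 166, 157 and 189 in control and 196, 168 and 159 in C3, which overlap widely, with a log2 fold change of 0.029 (SE 0.13). SESN2 (ENSG00000130766, chr1:28259518-28282491, plus strand), a leucine-binding inhibitor of mTORC1, had 644, 613 and 654 in control and 658, 607 and 661 in C3. With a log2 fold change of 0.012 (SE 0.075), SESN2 had the smallest absolute change of the members. DDIT4 (ENSG00000168209, chr10:72273919-72276036, plus strand), also called REDD1, restrains mTORC1 as well. It had normalized counts of 392, 408 and 343 in control and 475, 407 and 448 in C3. The log2 fold change was 0.21 (SE 0.092), and the lowest C3 library lay below the highest control, so the groups overlapped.

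The amino acid enzymes among the members also lacked a fall like that of ATF5. PSAT1 (ENSG00000135069, chr9:78297125-78330093, plus strand), the aminotransferase of serine synthesis, had normalized counts of 2360, 2540 and 2794 in control and 2572, 2818 and 2720 in C3. The groups overlapped, and the log2 fold change was 0.078 (SE 0.067). It was 0.034 without control library 1 and 0.14 without control library 3. PHGDH (ENSG00000092621, chr1:119648411-119744218, plus strand), which commits glycolytic carbon to serine, had 4981, 4914 and 4869 in control. In C3 its counts were 5188, 4378 and 4328, so that C3 library 1 was above all controls and the others below them. The log2 fold change of -0.089 (SE 0.068) averages over this split, and was -0.17 without C3 library 1 and -0.039 without C3 library 3.

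ASNS (ENSG00000070669, chr7:97851677-97872542, minus strand) makes asparagine and is a classic ATF4 target. It had only 18.6, 23.3 and 23.9 normalized counts in control and 23.9, 26.8 and 27.5 in C3. The groups met at their edges without overlapping, and the log2 fold change was 0.26 with an SE of 0.30. This value was 0.16 without control library 1 and 0.32 without control library 3. The depth is small, with raw counts of 19 to 35 in a library. In GENCODE 44, 99.5% of the main ASNS transcript lies in exons of another gene on the same strand, ENSG00000284707, and only 11 bases are its own. That gene had 4 counts over all libraries. Reads that fall in exons of both genes may have gone uncounted, so the ASNS value cannot be taken as its expression level. The pseudogene ASNSP1 had 136 counts over all libraries.

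Per length of merged exons (RPKM), the members spanned a wide range of levels in control. ATF4 was the highest at 87.5 ± 0.22 (SD, n = 3), followed by PSAT1 at 62.4 ± 5.30, PHGDH at 28.7 ± 0.33 and ATF5 at 17.3 ± 0.93. TRIB3, SESN2 and DDIT4 came next at 10.2 ± 0.93, 9.87 ± 0.33 and 9.65 ± 0.86 RPKM, and neighbours among these overlapped. CHAC1 reached 4.46 ± 0.43, DDIT3 1.81 ± 0.39 and ASNS 0.24 ± 0.032 RPKM. Because of exons shared with other genes, the values of DDIT3 and ASNS, and so their order, may not be their expression levels. In C3, ATF5 was at 9.12 ± 0.68 RPKM and in place 7 of the 10 by its mean, against place 4 in control. Its C3 libraries overlapped those of SESN2 in place 6, since C3 library 1 of ATF5 had 9.90 RPKM and C3 library 2 of SESN2 had 9.40 RPKM. These places depend on the length used. Per length of the main transcript, ATF5 was in place 6 in C3 with 13.1 ± 0.98 RPKM, above SESN2 at 9.95 ± 0.47, and PHGDH was in place 2 in control with 142 RPKM.

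**Figure D3:**
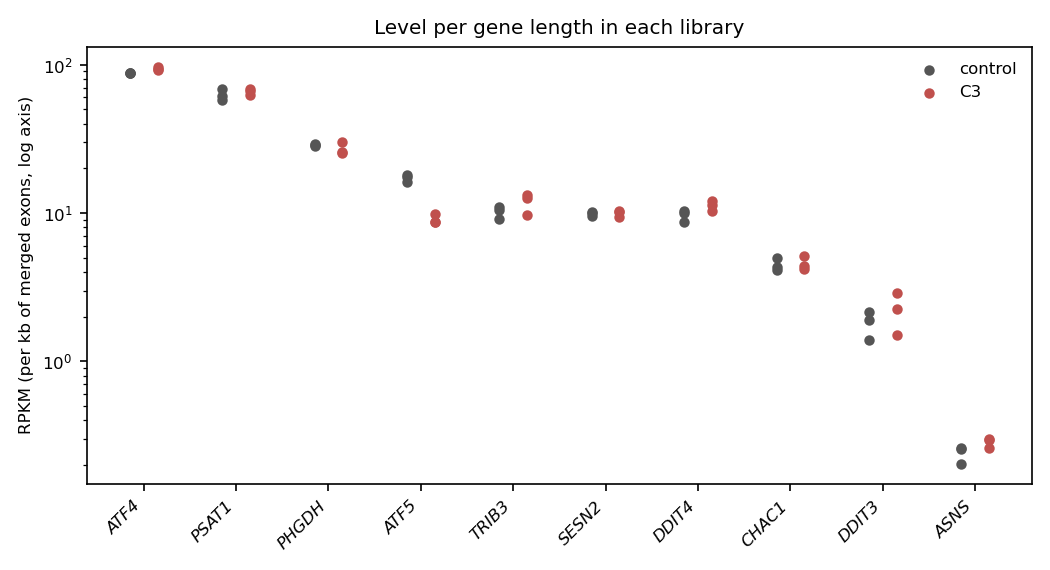
Level per kilobase of merged exons in RPKM (vertical axis, logarithmic) of the 10 members, in order of their control mean, in the control (grey) and C3 (red) libraries, 1 point per library. The mean of ATF5 goes from 17.3 to 9.12 RPKM, where its C3 libraries overlap those of SESN2. Exons shared with other genes may affect the values of DDIT3 and ASNS.

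ATF5 also shares sequence with neighbours, though less than ASNS does. In its main transcript 1737 bases are not shared with any other gene, 9.77% lie opposite NUP62 or IL4I1, and 3.69% lie in the microRNA gene MIR4751, which had 0 counts. NUP62, a nuclear pore protein gene on the opposite strand, had a mean normalized count of 5636 ± 335 in control and 5753 ± 272 in C3 (SD, n = 3), with a log2 fold change of 0.029 (SE 0.064, adjusted p = 0.804 in edgeR). For IL4I1 the log2 fold change was 0.53, with an adjusted p of 0.171. Thus neither neighbour was called in edgeR.

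The tested genes whose pattern was most like that of ATF5 over the 6 libraries, among 11850 genes with a mean of at least 50, were THOC6 (Pearson r = 0.997), MTO1 (0.997) and MAEA (0.996). The libraries share their groups, and the correlations are given as a description. THOC6, a subunit of the mRNA export complex THO, had 1327, 1316 and 1294 normalized counts in control and 948, 849.9 and 859.5 in C3, a log2 fold change of -0.57 (SE 0.068). MTO1, which modifies mitochondrial tRNA, and MAEA, a subunit of an E3 ubiquitin ligase, changed less, with log2 fold changes of -0.27 and -0.28. Among the members, the correlation with ATF5 ranged from -0.90 (ATF4) to 0.59 (PHGDH).

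The rest of the pathway was covered by 122 genes in 10 lists, of which 116 were tested. In edgeR 5 of these were called higher (CDKN1A, TNFRSF10B, GADD45A, SESN3 and CEBPB) and 0 lower, or 4.31% of the 116, beside 5.05% of all tested genes called higher, 1.47% called lower and 6.52% in either direction. At unadjusted p below 0.05 there were 22 higher and 21 lower, beside 16.8% and 15.3% of all tested genes, and the counts of each list are to be read beside the same shares. DESeq2 called 4 higher (all but CEBPB) and 0 lower, and limma-voom called 5 and 0. Without control library 1, PSPH was called lower, VEGFA was called higher and SESN3 was no longer called. The median log2 fold change of the 116 genes was -0.0097, with 51 above 0 and 65 below, and the values ran from -0.34 to 0.53. CEBPE, SLC7A3, NUPR1, FGF21, LAMP3 and DDIT4L did not pass the count filter.

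**Figure D4:**
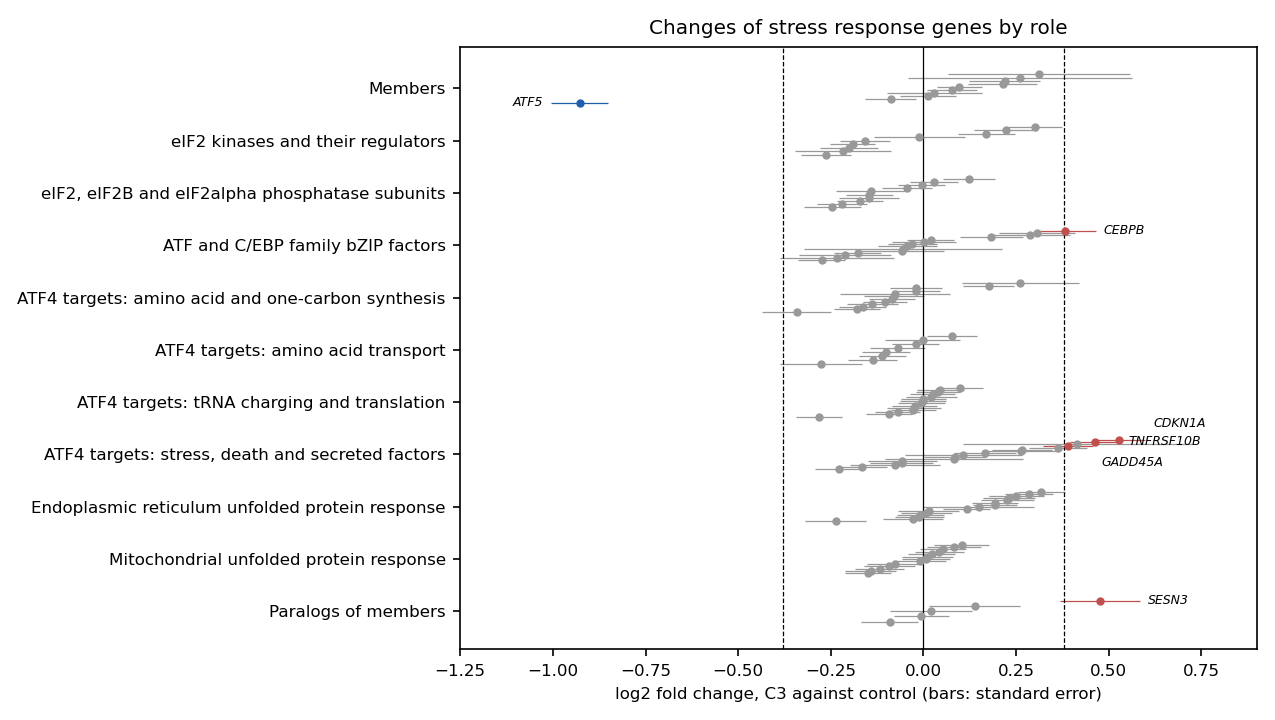
Log2 fold change of C3 against control (horizontal axis, with the SE as bars) for the members and the 10 lists of other pathway genes (vertical axis), 1 point per tested gene. Dashed lines mark the 1.3-fold gate, red and blue points are genes called higher and lower in edgeR, and ATF5 at -0.93 stands to the left of all other points.

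In the eIF2 kinase list, 0 of 9 tested genes were called in edgeR, with 3 higher and 4 lower at unadjusted p below 0.05, and the median log2 fold change was -0.16. Neither DESeq2 nor limma-voom called a gene of this list (0 of 9). EIF2AK1, the haem-regulated kinase, had 3702, 3706 and 3716 normalized counts in control and 3376, 3172 and 3196 in C3, so that all C3 libraries were lower. Its log2 fold change was -0.19 (SE 0.060, adjusted p = 0.0251), which missed both gates. EIF2AK2, the kinase activated by double-stranded RNA, had a log2 fold change of 0.22 (SE 0.084, adjusted p = 0.0650). EIF2AK3, the endoplasmic reticulum kinase PERK, was at -0.011 (SE 0.12, adjusted p = 0.963). The amino acid sensor EIF2AK4, or GCN2, was at -0.16 (SE 0.067, adjusted p = 0.0990). The smallest p-value of the list was that of DNAJC3, an inhibitor of PERK and EIF2AK2, with 820 ± 17.8 in control and 1008 ± 82.6 in C3 (SD, n = 3). Its log2 fold change of 0.30 (SE 0.073, adjusted p = 0.00420) passed the p-value gate but not the fold gate. DELE1, a relay of mitochondrial stress to EIF2AK1 that was named after its values were seen, did the same in the opposite direction, with 2371, 2371 and 2433 in control and 2184, 2009 and 1793 in C3 and a log2 fold change of -0.26 (SE 0.068, adjusted p = 0.00706).

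Subunits of eIF2, of its exchange factor eIF2B and of the eIF2alpha phosphatases gave 0 calls among 10 tested genes in edgeR, DESeq2 and limma-voom. At unadjusted p below 0.05, 0 were higher and 4 lower in edgeR, and the median was -0.14. EIF2B1, the alpha subunit of eIF2B, had the smallest p-value, with 1153 ± 50.2 in control and 989.5 ± 14.8 in C3 (SD, n = 3) and a log2 fold change of -0.22 (SE 0.067, adjusted p = 0.0202). PPP1R15A, or GADD34, which directs phosphatase to eIF2alpha and is itself known as an ATF4 target, was at -0.15 (SE 0.063, adjusted p = 0.109). Its constitutive relative PPP1R15B was at 0.028 (SE 0.065, adjusted p = 0.815). None of the genes named from this list passed the gates.

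Among 14 tested bZIP factors of the ATF and C/EBP families, 1 was called higher and 0 lower in edgeR, with 4 higher and 2 lower at unadjusted p below 0.05 and a median of -0.037. The called gene was CEBPB, which can pair with ATF4, with 486, 456 and 522 normalized counts in control and 656, 668 and 586 in C3. The groups did not overlap, and its log2 fold change of 0.38 (SE 0.082, adjusted p = 0.00161) lay at the edge of the fold gate. The call was lost in DESeq2 (log2 fold change 0.37, adjusted p = 0.00363), without control library 2 (0.34, adjusted p = 0.0206), without C3 library 1 (0.36, adjusted p = 0.00328) and without C3 library 2 (0.35, adjusted p = 0.00837). The range of its adjusted p over 12 alternatives was 8.28e-05 to 0.0206. ATF3, a stress-induced repressor, had 236, 237.5 and 224.5 in control and 273, 294 and 295 in C3, a log2 fold change of 0.31 that was not called (SE 0.10, adjusted p = 0.0354). CEBPG, a partner of ATF4, was at -0.18 (SE 0.064, adjusted p = 0.0505). CEBPA, named after its values were seen, passed the p-value gate on the lower side but not the fold gate, with a log2 fold change of -0.28 (adjusted p = 0.00253), and 43.9% of its main transcript is shared with other genes.

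ATF4 targets that serve amino acid supply, outside the members, gave no call in edgeR. Of 12 tested genes for amino acid and folate enzymes 0 were called, with 1 higher and 3 lower at unadjusted p below 0.05 in edgeR and a median of -0.083. PSPH, which completes serine synthesis after PHGDH and PSAT1, had 596, 723 and 835 normalized counts in control and 562, 595 and 538 in C3. The groups nearly met, and its log2 fold change was -0.34 (SE 0.093, adjusted p = 0.0103). Without control library 1 it was called lower, with a log2 fold change of -0.45 (adjusted p = 0.00168). Without control library 3 the log2 fold change shrank to -0.22 (adjusted p = 0.0983). Over 12 alternatives the adjusted p ranged from 0.000317 to 0.0983.

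Amino acid transporters gave 0 calls among 8 tested genes in edgeR, with 0 higher and 2 lower at unadjusted p below 0.05, and a median of -0.086. SLC7A11, the cystine importer, had the smallest p-value of this list, with a log2 fold change of -0.28 (SE 0.11, adjusted p = 0.0806). Of 14 tested genes for tRNA charging and translation 0 were called, with 0 higher and 1 lower at unadjusted p below 0.05, and the median was -0.0044. That gene was WARS1, the tryptophan tRNA synthetase, with 3673 ± 44.97 in control and 3021 ± 157 in C3 (SD, n = 3). Its log2 fold change of -0.28 (SE 0.062, adjusted p = 0.00182) passed the p-value gate and not the fold gate. DESeq2 and limma-voom called 0 genes in these lists of enzymes, transporters and tRNA charging.

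The list of stress, death and secreted factors held 3 of the genes called higher, among 16 tested (18.8%, beside 5.05% of all tested genes). It had 6 higher and 2 lower at unadjusted p below 0.05 in edgeR (beside 16.8% and 15.3%), 0 called lower there and in DESeq2 and limma-voom, and a median log2 fold change of 0.14. CDKN1A, the cell cycle inhibitor p21, had 763, 751 and 778.5 normalized counts in control and 1188, 1024 and 1093 in C3, a log2 fold change of 0.53 (SE 0.072, adjusted p = 8.19e-06). TNFRSF10B, the TRAIL receptor DR5, had 810.1, 843 and 870.5 in control and 1128, 1164 and 1185 in C3, a log2 fold change of 0.46 (SE 0.068, adjusted p = 2.01e-05). Both rose in all 3 C3 libraries and were called in each of 12 alternatives. GADD45A, a growth arrest gene, had 949, 923 and 875 in control and 1193, 1163 and 1244 in C3, a log2 fold change of 0.39 (SE 0.068, adjusted p = 0.000181). It dropped below the fold gate without control library 3 (0.36, adjusted p = 0.00141) and without C3 library 3 (0.365, adjusted p = 0.00300), with adjusted p between 1.32e-06 and 0.00300 over 12 alternatives. VEGFA, a secreted growth factor named after its values were seen, was just under the fold gate with a log2 fold change of 0.36 (SE 0.078, adjusted p = 0.00157). It was called higher in 4 of 12 alternatives: library size alone (0.44), without control library 1 (0.45), without control library 2 (0.38) and without C3 library 2 (0.40), with adjusted p between 1.28e-05 and 0.0189 over the 12. CDKN1A, TNFRSF10B and GADD45A are also known as targets of p53. Which regulator lay behind their change was not tested.

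Genes of the unfolded protein response of the endoplasmic reticulum gave 0 calls among 15 tested genes in edgeR, DESeq2 and limma-voom. In edgeR, 7 were higher and 1 lower at unadjusted p below 0.05, beside 16.8% and 15.3% of all tested genes. The same numbers had an adjusted p below 0.05, beside 11% and 8.77% of all tested genes. The median of 0.15 was the highest of the 10 lists. EDEM1, which sends misfolded glycoproteins to degradation, had 3059, 2857 and 2937 normalized counts in control and 3544, 3884 and 3611 in C3. All C3 libraries were higher, with a log2 fold change of 0.32 (SE 0.062, adjusted p = 0.000665) that was under the fold gate. With library size alone it was called, at 0.39 (adjusted p = 0.000131).

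The mitochondrial unfolded protein response, which ATF5 is known to serve, had no called gene at the mRNA level. Of 13 tested chaperones and proteases 0 were called in edgeR, DESeq2 and limma-voom, with 0 higher and 2 lower at unadjusted p below 0.05 in edgeR. The median was 0.0067, with values between -0.15 and 0.10. AFG3L2, a protease of the inner membrane, had the smallest p-value, with 1562, 1611 and 1562 in control and 1439, 1450 and 1379 in C3 and a log2 fold change of -0.15 (SE 0.063, adjusted p = 0.0942).

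Of 5 tested paralogs of the members 1 was called higher and 0 lower in edgeR, with 1 higher and 0 lower at unadjusted p below 0.05 and 0 lower in DESeq2 and limma-voom. This was SESN3, a sestrin like SESN2, with 208, 263 and 269 normalized counts in control and 327, 361 and 337 in C3. The groups did not overlap, and the log2 fold change was 0.48 (SE 0.11, adjusted p = 0.00233). The call was lost without control library 1 (0.38, adjusted p = 0.0277), without C3 library 2 (0.44, adjusted p = 0.0103) and without C3 library 3 (0.49, adjusted p = 0.0104), and the adjusted p over 12 alternatives was between 0.000123 and 0.0277. Between SESN3 and SESN2 the difference in response was not tested.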

How the data were processed

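Per the labels and the study's methods, the authors used fastp for read cleaning, STAR 2.6.1d for alignment to GRCh38 (hg38) and featureCounts 1.5.0-p3 for counting per gene (versions from the submitters' processing notes, which also name DESeq2). The deposited values are raw counts. Neither the annotation release nor the strandedness of counting is given in the sources used. Symbols, lengths and coordinates were from GENCODE 44 (58207 of 58735 identifiers matched), and sequences from RefSeq (GRCh38.p14) and hg38.

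The 15078 genes that reached 10 counts in 3 or more libraries were scaled with TMM and compared by edgeR 4.0.16 (R 4.3.3, quasi-likelihood test, Benjamini-Hochberg adjustment over all of these). For normalized counts, each count was scaled from its effective library size to the mean of 18641746. The SE was derived from the log2 fold change and the F statistic (their ratio after taking the root of F). Correlations and ratios used log2 CPM with a prior count of 2. Alternatives were DESeq2 1.42.0, limma-voom (limma 3.58.1), library size alone, RLE factors, no count filter, the replicate number as a block, leaving out each library, and an adjusted p-value below 0.05 without a fold gate. The fit was tested on simulated data.

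The members, the 10 pathway lists (written from general knowledge) and the marker lists were chosen with earlier results of these data known. Named genes were the members, the 4 eIF2 kinases, PPP1R15A, PPP1R15B, ATF3, CEBPB and CEBPG, up to 4 called genes per list (else the gene with the smallest p-value), and the 3 genes with the highest correlation with ATF5 at a mean of at least 50.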

Additional observations from a re-analysis of the deposited data

How the results depend on the processing

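The log2 fold change of ATF5, on which the members were chosen and which is therefore a description only, ran from -0.98 (without C3 library 1) to -0.85 (library size alone). Over members and 12 refits, 118 of 120 values moved by less than 1 SD between libraries. The 2 others were ATF4 (0.17) and SESN2 (0.085) with library size alone, which also put the median of all tested genes at 0.076 in place of 0.0021. CHAC1 changed sign in 2 and SESN2 in 3 alternatives. Among other pathway genes, 16 were higher and 10 lower when the adjusted p-value was read at 0.05 in place of 0.01 and the fold gate was dropped, in place of 5 and 0, and leaving out single libraries gave 3 to 5 higher and 0 to 1 lower. Over all tested genes, the 761 higher and 222 lower became 1658 and 1323 under the same rule. Library size alone gave 1024 higher and 101 lower (91.0% of calls higher, against 77.4%), and leaving out single libraries gave 129 (without C3 library 3) to 340 (without C3 library 1) lower. The causes were not tested. The replicate numbers share no source in the labels, and same-numbered libraries did not deviate together (correlations 0.021, -0.047 and 0.030), nor did every library correlate best with its own number. With a replicate block, ATF5 was at -0.92, with 909 genes called higher and 268 lower, and the calls among members and pathway genes were the same genes. DDIT3 and ASNS rest on low counts, and exons shared with other genes may affect the values of both.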
